A study of Saccharomyces cerevisiae with 144 samples.

Results

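The genes YAP1, TRX2, TRR1, TSA1, AHP1, GSH1, GRX2, OYE3 and SOD1 encode the transcription factor Yap1 and enzymes that keep yeast proteins reduced and remove peroxides and superoxide. These 9 genes, chosen by their systematic names among 6465 counted gene regions of Saccharomyces cerevisiae, were followed through 23 strains with and without acute loss of the BET proteins Bdf1 and Bdf2. All 9 passed the filter on low counts that left the genes tested. Transcription was measured by SLAM-seq, in which newly made RNA takes up 4-thiouracil (4tU) and reads copied from it carry T-to-C conversions. Cells received DMSO or 1 mM 3-indoleacetic acid (IAA, auxin) for 25 min and then 5 mM 4tU for 4 min.

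In every strain both endogenous proteins carried an auxin degron, as BDF1-3xV5-mAID::URA3 and as BDF2-3xV5-mAID::KanMX, beside the OsTIR1 receptor (pGPD1-OsTIR1:HIS3), so that IAA triggered their destruction in all of them. The parental strain, Bdf1/2-AID, had no further copy of BDF1. The other 22 strains carried an added BDF1 copy at the TRP1 locus under the BDF1 promoter, unmodified in the strain called WT and altered in the rest. Deletions removed the bromodomains (ΔBD1, ΔBD2, ΔBD1/2), the phosphorylation sites (ΔNPS, ΔCPS, ΔNPS/CPS), the B and BID motifs (ΔB, ΔBID, ΔB/BID), the extra-terminal domain (ΔET) or the disordered region (ΔIDR). Mutations were placed in the bromodomains (mBD1, mBD2, mBD1/2), in the phosphorylation sites (mNPS, mCPS, mNPS/CPS, and the phosphomimetic pNPS/CPS) or in acidic ET residues (mET(1), mET(2) and mET(4), named for the number of residues changed). WT had 6 replicates a treatment, A to F, and each other strain had 3. "WT" therefore does not mean an untagged strain, and in DMSO all strains still had the tagged endogenous proteins.

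Yap1 is a bZIP transcription factor that is held out of the nucleus by export until oxidation of its cysteines lets it accumulate there and switch on antioxidant genes. Those genes fall into a thioredoxin branch, in which NADPH reduces thioredoxin through thioredoxin reductase and thioredoxin then reduces peroxiredoxins, and a glutathione branch that serves glutaredoxins. Bdf1 and Bdf2 bind acetylated histones and help to bring the general factor TFIID to promoters. Yap1 activity and oxidants were not measured here.

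Coordinates below are on build R64 and cover the counted region, which ran from the start codon to 250 bases past the stop codon. YAP1 (YML007W) itself lay at chrXIII:253848-256050 on the plus strand. TRX2 (YGR209C, chrVII:912663-913227, minus) encodes a cytoplasmic thioredoxin, and TRR1 (YDR353W, chrIV:1183299-1184508, plus) encodes the reductase that recharges it. TSA1 (YML028W, chrXIII:220138-220978, plus) encodes the main cytoplasmic peroxiredoxin, and AHP1 (YLR109W, chrXII:368781-369561, plus) a peroxiredoxin that prefers alkyl hydroperoxides. GSH1 (YJL101C, chrX:234070-236356, minus) encodes the enzyme of the first step of glutathione synthesis, and GRX2 (YDR513W, chrIV:1471017-1471698, plus) a glutaredoxin. OYE3 (YPL171C, chrXVI:225919-227371, minus) encodes an NADPH oxidoreductase of the old yellow enzyme family, and SOD1 (YJR104C, chrX:622300-623014, minus) the copper-zinc superoxide dismutase. The regions of 6 of the 9 (YAP1, TRX2, AHP1, GSH1, GRX2 and SOD1) overlapped a region on the other strand, and none overlapped one on the same strand. For AHP1 the other region was that of YLR110C. Whether counting kept the strands apart is not given in the sources used here.

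Yap1 is known to bind TTACTAA and the related words TGACTAA and TTACGTAA. Read on both strands in the 500 bases before the start codon (RefSeq, R64), 7 of the 9 genes held at least 1 of these words, against 18.1% of 6006 genes. TTACTAA stood before 5 members (11.8% of genes), TGACTAA before 2 (5.98%) and TTACGTAA before 1 (1.25%). No 2 matches overlapped among the members, and TTACGTAA is its own reverse complement. YAP1 and TSA1 had no exact match in this window. The matches of the 4 genes with the largest differences in the bromodomain deletion strains described below are shown with flanks and R64 coordinates, nearer and farther being relative to the start codon, read along the gene's strand, with the matched word in capitals. TTAGTAA and TTAGTCA are TTACTAA and TGACTAA read on the other strand.
TRX2, nearer match, chrVII:913391-913419: tggctcttttcTTACTAAgcgcgttcagt
TRX2, farther match, chrVII:913427-913455: tgtttatactcTTAGTAAaggatgctccc
TRR1, nearer match, chrIV:1183096-1183124: ttagcttctccTTAGTCAtggagaaaaaa
TRR1, farther match, chrIV:1182884-1182913: tagcgccagttTTACGTAAaaccgtctatg
GRX2, chrIV:1470862-1470890: tagcagaactaTTACTAAgatccgatatt
OYE3, nearer match, chrXVI:227502-227530: cgcaataaccaTTACTAAgcacagtgttg
OYE3, farther match, chrXVI:227566-227594: agaagggctccTTAGTAAgcagtttgcgt
The 2 TRX2 matches began 181 and 217 bases before the start codon, and the 2 OYE3 matches 148 and 212 bases before it. The other members with a match were SOD1, GSH1 and AHP1. The 9 genes were chosen as Yap1 redox genes, so their share of matches is no independent result. A match is a description of the sequence and not evidence of binding.

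Total reads per library ran from 4089393 to 21384793, with a median of 8054872. Reads with multiple conversions, called T>C reads, made up 0.739% to 5.60% of a library. Mean T>C reads per library ran from 16.6 for OYE3 to 1394 for TRX2, so that OYE3 was the least precisely measured. In 18 libraries with adjacent numbers, those of WT A–C, mET(4) and mBD1/2, the ribosomal protein gene RPL41A took 8.64% to 20.9% of total reads, against 1.44% to 6.1% in the other 126, and the WT replicates are therefore also given as A–C and D–F. BDF1 had 96.3 to 140 counts per 1000000 total reads (CPM) in the 6 Bdf1/2-AID libraries and 153 to 480 in the 138 libraries of strains with an added copy. TRX2 has a neighbour on the same strand, YGR210C, whose counted region ends 25 bases before the TRX2 start codon, and in every library the T>C reads of YGR210C were 0.764 to 0.989 of those of TRX2, so the counts of these genes did not vary separately. TSA1 also tracked a neighbour, USA1, whose total reads were 0.159 to 0.784 of those of TSA1 and whose log2 CPM followed that of TSA1 over the libraries (Pearson r = 0.980, a description without a test, since libraries share strains and sets).

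A level below is T>C reads per 10000000 total reads of the library, the scaling that the study's methods name for this time point. A relative change is the same contrast with factors (TMM) computed from the T>C reads themselves, which sets each gene against the middle of the genes tested. The labelled share is the percent of a gene's own reads that are T>C reads. Changes are log2 values ± SE from edgeR with adjusted p over all genes. In these bulk cultures, fewer transcribing cells and less new RNA per cell cannot be told apart.

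Loss of Bdf1/2 with no added copy lowered transcription of most genes, and 8 of the 9 redox genes lay at or above the 86.6 percentile of all changes. In Bdf1/2-AID, 5 of 9 members were lower in IAA than in DMSO, against 84.3% of all genes tested. The median member changed by −0.39 and the median gene by −1.86. None was higher. AHP1, GRX2, SOD1, YAP1 and OYE3 fell, while TRX2, TRR1, TSA1 and GSH1 did not pass the test.

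Of the thioredoxin branch, TRX2, TRR1 and TSA1 did not pass the test and AHP1 fell. TRR1 had levels of 161, 187 and 159 in the DMSO libraries A, B and C and 158, 167 and 195 in IAA, a change of 0.03 ± 0.16 (adjusted p = 0.861). TSA1 had levels of 484, 470 and 494.9 in DMSO and 434, 440.9 and 541.6 in IAA (−0.03 ± 0.13, adjusted p = 0.833). The IAA libraries lay on both sides of the DMSO libraries for both genes. TRX2 went from 1255, 1254 and 1523 to 1033, 1158 and 1370 (−0.18 ± 0.12, adjusted p = 0.177), with overlapping groups. By contrast, AHP1 went from 1702, 1686 and 1577 to 1080, 1034 and 1098 (−0.63 ± 0.12, adjusted p = 1.79e-06), and no library of one treatment reached the other. TRR1 stood at the 97.3 percentile of all changes, TSA1 at 96.5, TRX2 at 94.7 and AHP1 at 86.6.

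In the glutathione branch, GSH1 had levels of 146, 123 and 139 in DMSO and 127, 99.4 and 117 in IAA, overlapping groups that did not pass the test (−0.26 ± 0.18, adjusted p = 0.156). GRX2 fell from 144.2, 127 and 139 to 60.2, 106 and 93.0 (−0.62 ± 0.18, adjusted p = 0.00107), with every IAA library below every DMSO library. SOD1 fell less, from 579, 523 and 528 to 394.4, 373 and 477 (−0.39 ± 0.14, adjusted p = 0.00565). These groups also stood apart. The SOD1 call was lost when IAA replicate B was left out.

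YAP1 fell from 80.2, 64.6 and 57.0 to 52.3, 41.7 and 39.9 (−0.63 ± 0.23, adjusted p = 0.00926), and every IAA library lay below every DMSO library. OYE3, at the 56.7 percentile, had the largest fall of the 9, from 22.9, 13.3 and 11.7 to 7.92, 3.55 and 4.43 (−1.70 ± 0.52, adjusted p = 0.00191). Both calls were lost without DMSO replicate A, the highest library of each gene, and 3 members then remained lower. YAP1 and OYE3 are also the members with the fewest T>C reads.

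**Figure D1:**
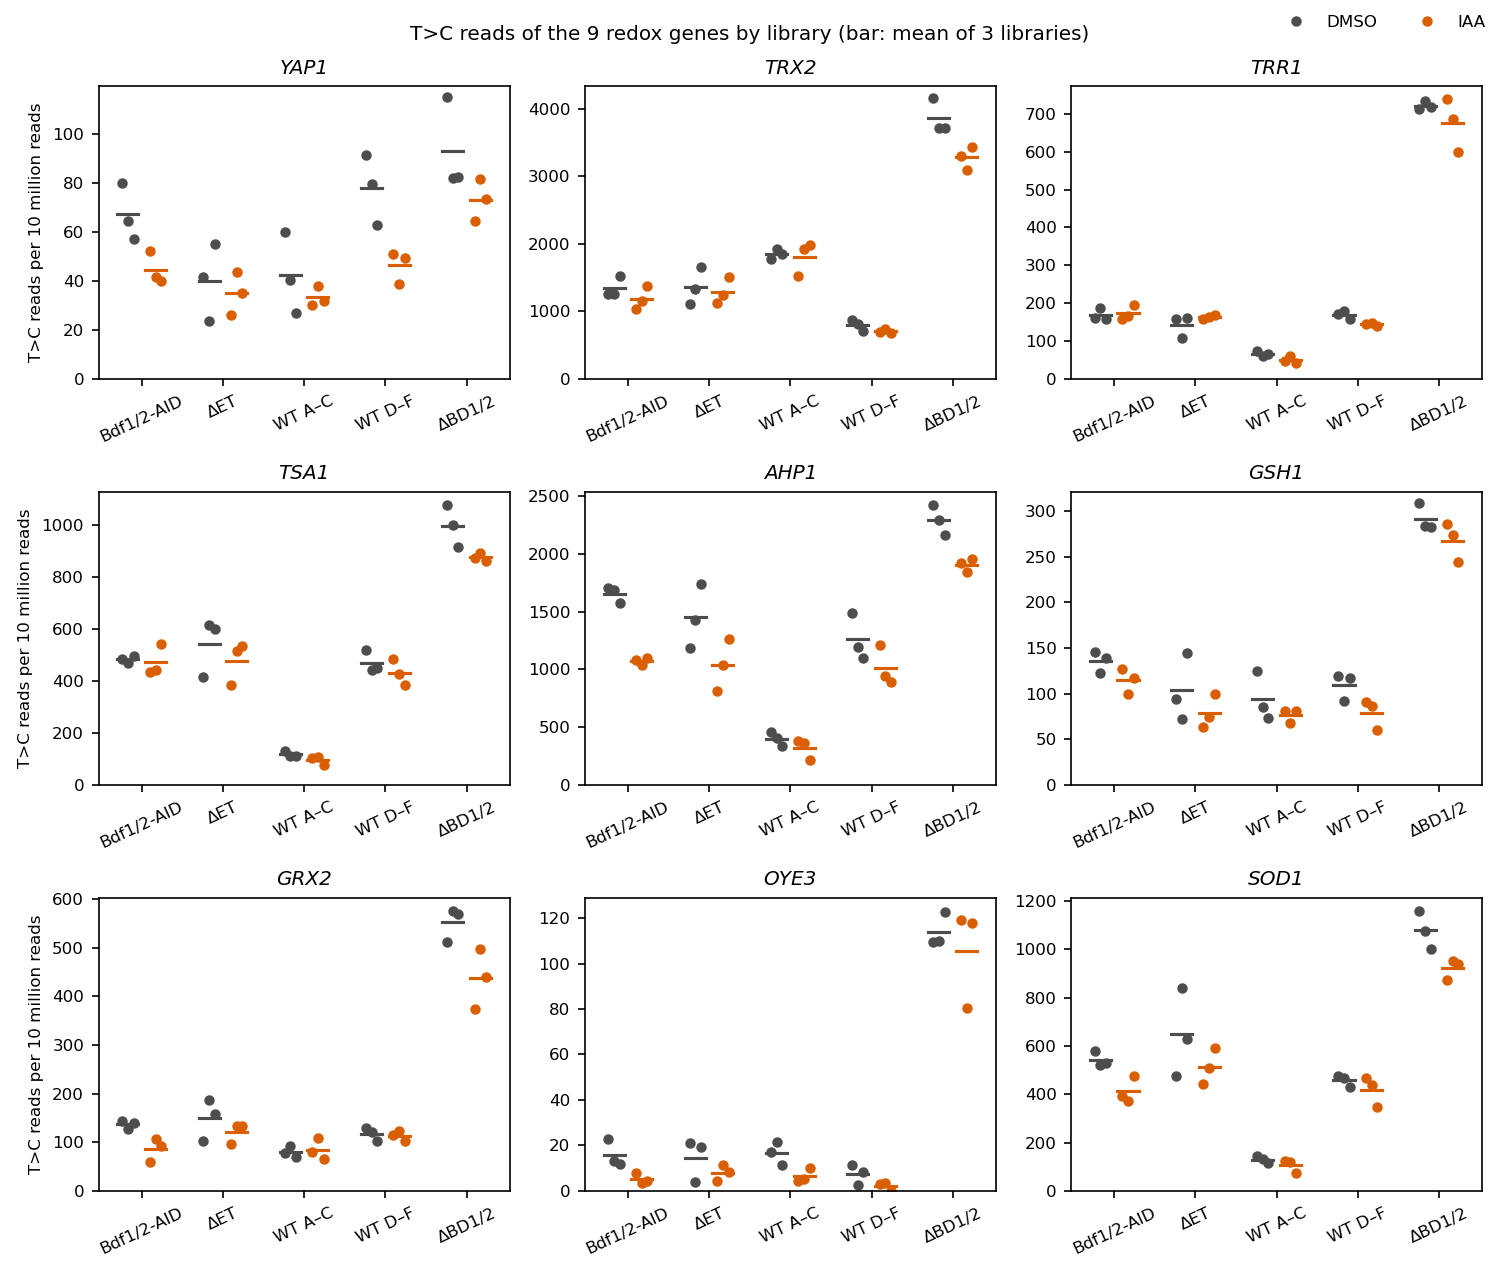
Level of each of the 9 genes (T>C reads per 10000000 total reads, linear axis from 0) in single libraries of Bdf1/2-AID, ΔET, WT A–C, WT D–F and ΔBD1/2, DMSO in grey and IAA in orange, with a bar at the mean of 3. In Bdf1/2-AID the TRR1 and TSA1 points of both treatments overlap, whereas the AHP1 points do not, and ΔBD1/2 lies above Bdf1/2-AID for most genes in DMSO.

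Against the middle of genes, 8 of 9 members were higher on IAA in Bdf1/2-AID, where 17.5% of all genes were. TRR1 rose by 1.69 ± 0.16 (adjusted p = 5.15e-22), TSA1 by 1.63 ± 0.13 (adjusted p = 8.66e-30), TRX2 by 1.48 ± 0.11 (adjusted p = 6.47e-31) and GSH1 by 1.40 ± 0.18 (adjusted p = 3.04e-13). SOD1, GRX2, YAP1 and AHP1 rose by 1.27, 1.05, 1.04 and 1.03. OYE3 did not pass the test (−0.05 ± 0.55, adjusted p = 0.963). In DMSO the 8 members called had log2 levels above the median gene, by 1.42 (YAP1) to 6.04 (AHP1). OYE3 lay below it (−0.62). Genes with more reads pass a test more easily, and the share of all genes was not matched for depth. The sign of most members thus depends on the scaling: over library totals YAP1, TRX2, TSA1, AHP1, GSH1, GRX2 and SOD1 had negative values, and with TMM they had positive values.

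The labelled share needs no scaling between libraries. It was lower on IAA for 7 of 9 members, against 38.0% of all genes. The fall itself was smaller, as the median member changed by −0.51 and the median gene by −0.79. SOD1 went from 3.07%, 2.69% and 3.02% to 1.79%, 1.72% and 1.80% (−0.72, adjusted p = 2.33e-09), and AHP1 from 2.57%, 2.59% and 2.56% to 1.69%, 1.57% and 1.52% (−0.69, adjusted p = 1.37e-10). TSA1 also fell, from 2.79%, 2.79% and 2.97% to 2.10%, 1.90% and 1.99% (−0.51, adjusted p = 4.82e-05). So did TRX2, from 5.98%, 5.94% and 6.88% to 4.05%, 4.31% and 5.01% (−0.49, adjusted p = 1.47e-05). TRR1 (−0.28, adjusted p = 0.0898) and OYE3 (−0.46, adjusted p = 0.466) did not pass. For TSA1, TRX2 and GSH1 the labelled share passed the test where the level did not.

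Total reads, which mostly count RNA made before the labelling, give the other term of that share. TSA1, SOD1, TRX2 and TRR1 had more total reads on IAA, 4 of 9 members against 5.34% of genes. TSA1 rose from 1735, 1688 and 1668 to 2070, 2317 and 2716 CPM (0.48 ± 0.10, adjusted p = 8.02e-05), and TRX2 from 2097, 2109 and 2214 to 2552, 2686 and 2734 (0.31 ± 0.09, adjusted p = 0.00194). SOD1 rose by 0.33 and TRR1 by 0.31. OYE3 fell from 11.3, 11.6 and 10.1 to 4.44, 4.53 and 4.65 (−1.28 ± 0.19, adjusted p = 1.62e-06), as did 72.3% of genes, with a median gene at −1.06. CPM values are shares of a library, so a rise is a rise relative to the other RNAs present.

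Of 34 further redox genes, 30 could be tested. On IAA in Bdf1/2-AID 21 of these 30 had lower levels and none was higher, with a median change of −0.81. Relative to the middle of genes, 17 were higher and 3 lower. Close relatives of the members split. TRX1, which encodes the other cytoplasmic thioredoxin, fell from 149, 173 and 127 to 14.3, 33.7 and 21.1 (−2.63 ± 0.23, adjusted p = 4.15e-25), where TRX2 did not pass the test. GRX1, the other glutaredoxin of the same type, fell from 43.9, 43.3 and 25.2 to 9.50, 15.1 and 13.3 (−1.56 ± 0.34, adjusted p = 1.13e-05). TRR2, the mitochondrial thioredoxin reductase, fell by 2.91 and TSA2, a second cytoplasmic peroxiredoxin, fell by 3.33, each from few reads (0 to 19 and 1 to 30 T>C reads a library).

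The old yellow enzymes ran the other way, and the superoxide dismutases had like values. OYE2 went from 1503, 1465 and 1396 to 1061, 1069 and 1203 (−0.39 ± 0.12, adjusted p = 0.00265), against −1.70 for OYE3. SOD2, the mitochondrial manganese enzyme, changed by −0.37 ± 0.22 (adjusted p = 0.105), against −0.39 for SOD1. Taking the log2 ratio of member to relative in each library, the IAA mean exceeded the DMSO mean by 2.56 for TRX2 over TRX1, 2.90 for TRR1 over TRR2, 2.97 for TSA1 over TSA2 and 0.81 for GRX2 over GRX1. The ratio moved by −1.12 for OYE3 over OYE2 and by −0.04 for SOD1 over SOD2. With 3 libraries against 3, the exact two-sided permutation test cannot go below p = 0.1, which all pairs but SOD1 over SOD2 reached, the OYE pair in the other direction (0.18 adjusted over 18 such tests). In WT the ratios moved by 0.41 for the TRX pair, −0.09 for TRR, 0.01 for TSA, 0.03 for GRX and −0.19 for SOD. The OYE ratio differed in WT by −1.20 (exact permutation p = 0.195), a value like that in Bdf1/2-AID.

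**Figure D2:**
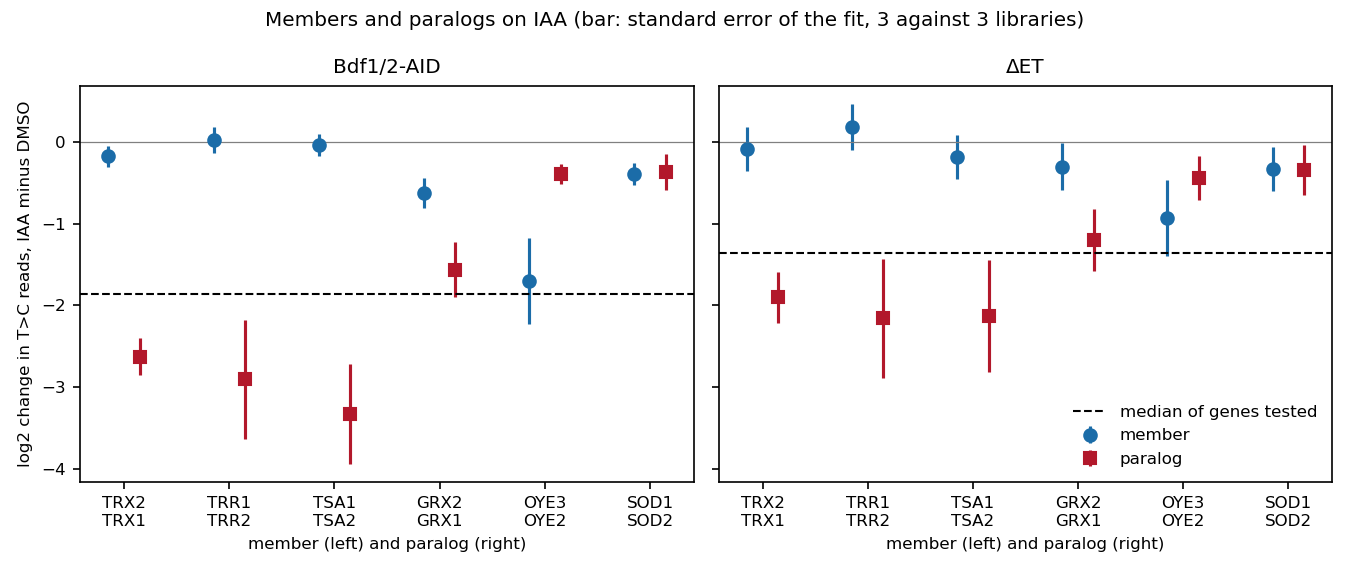
Log2 change of the level on IAA (± SE) for 6 members (blue circles) and their relatives (red squares) in Bdf1/2-AID and ΔET, with a dashed line at the median of the genes tested. TRX1, TRR2, TSA2 and GRX1 lie below TRX2, TRR1, TSA1 and GRX2, OYE3 lies below OYE2, and SOD1 and SOD2 lie close together.

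The 6 further redox genes with the largest distance from the middle of genes included those that encode sulfiredoxin (SRX1, 0.45, adjusted p = 0.0936), the mitochondrial peroxiredoxin (PRX1, 0.13), glucose-6-phosphate dehydrogenase (ZWF1, −0.03), a glutathione peroxidase-like enzyme (GPX2, −0.09) and a methionine sulfoxide reductase (MXR1, −0.18). None of these 5 levels passed the test in either direction. TRX3, which encodes the mitochondrial thioredoxin, fell by 3.75 (adjusted p = 2.21e-05).

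WT answers whether IAA moved the redox genes when an unmodified Bdf1 remained. Over the 6 replicates no member was lower, as no gene tested was (0%). DESeq2 also called 0 members. At an unadjusted p under 0.05 in edgeR, 1 member and 14.3% of genes were lower. YAP1 changed by −0.58 ± 0.28 (adjusted p = 0.35) and OYE3 by −1.38 ± 0.54 (adjusted p = 0.341), and the other members by −0.39 to 0.01, with a median gene at −0.37. The levels of TRR1 were 74.6, 60.4, 65.3, 172, 179 and 158 in DMSO replicates A to F and 46.7, 60.6, 41.0, 145, 147 and 141 in IAA. The lowest library of D–F was higher than the highest of A–C in both treatments, which widened the spread. No member was called within A–C or D–F alone.

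With the replicate letter as a block, YAP1 (−0.52, adjusted p = 0.0438), AHP1 (−0.33, adjusted p = 0.00337) and OYE3 (−1.42, adjusted p = 0.0212) were lower, 3 of 9 against 22.9% of genes, and the labelled share was lower for 7 of 9 against 17.3%. With the sets A–C and D–F as the block, OYE3 alone was lower (−1.41, adjusted p = 0.0345), against 10.3% of genes, and no share was, against 10.2%. The WT result for these genes therefore turned on the block.

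The WT sets themselves differed in DMSO. Replicates A–C were lower than D–F in TSA1 (−1.999, adjusted p = 4.33e-17), SOD1 (−1.82), AHP1 (−1.66), TRR1 (−1.35) and YAP1 (−0.87, adjusted p = 0.0158), 5 members against 19.8% of genes, and higher in TRX2 (1.21, adjusted p = 1.49e-11), against 10.1%. TSA1 had 266, 238 and 182 CPM in A–C and 1695, 1620 and 1659 in D–F. TRX2 had 3988, 4822 and 4253 in A–C and 1881, 1944 and 1893 in D–F. The RNA present therefore differed in the same directions as the new RNA. Strain label and treatment were the same, and the sets differed in library numbers, RPL41A share and replicate letters.

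**Figure D3:**
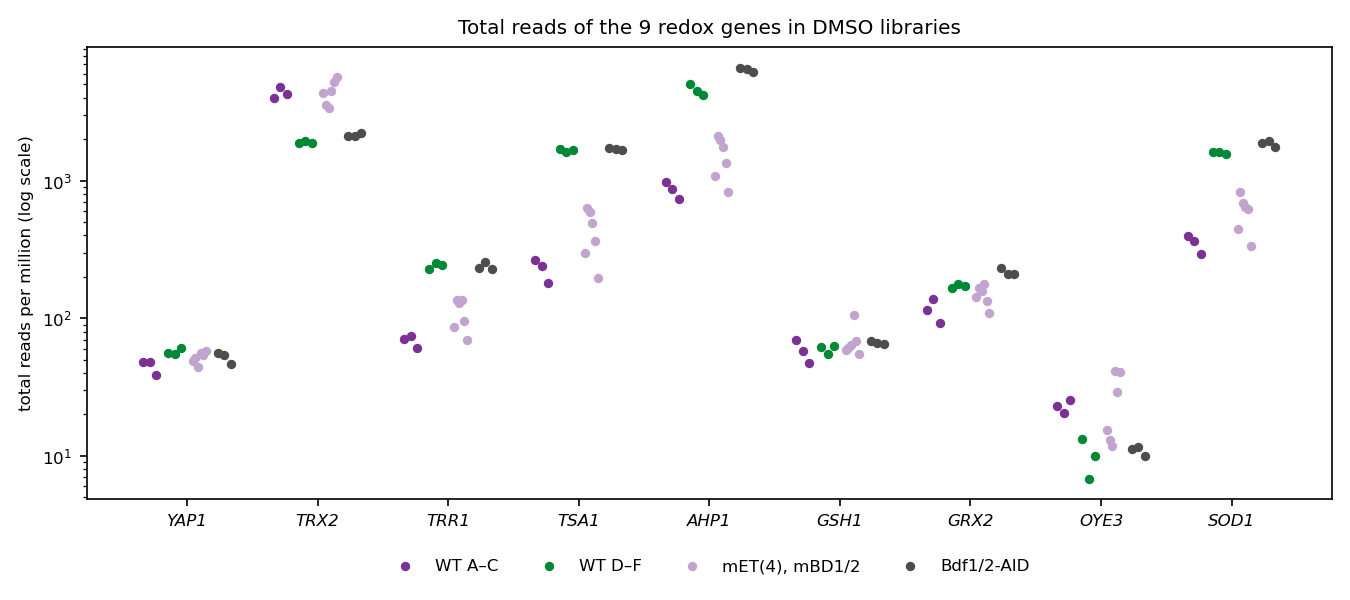
CPM of total reads (log axis) of the 9 genes in single DMSO libraries of WT A–C, WT D–F, mET(4) with mBD1/2, and Bdf1/2-AID. WT A–C and the mET(4) and mBD1/2 libraries lie together, low in TSA1, AHP1, SOD1 and TRR1 and high in TRX2, apart from WT D–F and Bdf1/2-AID.

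The difference between strains was tested as an interaction. Relative to the middle of genes, the change on IAA in Bdf1/2-AID exceeded that in WT A–F for TRR1 by 1.64 ± 0.48 (adjusted p = 0.0446), for GSH1 by 1.41 ± 0.30 (adjusted p = 0.011) and for YAP1 by 1.24 ± 0.34 (adjusted p = 0.0357), 3 of 9 against 4.15% of genes. Against WT A–C alone it did for 6 members (9.37% of genes), and against D–F alone for 8 (11.9%). With the WT sets as a block, 8 members differed (12.8% of genes), among them TSA1 by 1.48 (adjusted p = 4.35e-10), TRR1 by 1.66 (adjusted p = 3.76e-09) and GRX2 by 0.67 (adjusted p = 0.0393). OYE3 did not (0.99, adjusted p = 0.35). Over library totals with the same block no member was higher, and GRX2 was lower than in WT (−0.66, adjusted p = 0.029), 1 of 9 against 63.3% of genes, so the sign for GRX2 depends on the scaling. These tests share the WT libraries with one another.

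With the ET domain deleted from the added copy, the redox genes again lay high among the changes of all genes, from the 71.6 percentile for OYE3 to the 97.6 for TRR1, and replicates spread more widely. On IAA in ΔET no member's level was lower at the adjusted threshold, against 68.2% of genes, and 1 was at an unadjusted p under 0.05. The median member changed by −0.30 and the median gene by −1.35. TRR1 had 158, 109 and 160 in DMSO and 158, 162 and 168 in IAA (0.18, adjusted p = 0.552). TRX2 had 1106, 1331 and 1654 in DMSO and 1117, 1244 and 1505 in IAA (−0.08, adjusted p = 0.788). AHP1 went from 1186, 1431 and 1737 to 810, 1034 and 1263 (−0.49, adjusted p = 0.0966), and OYE3 changed by −0.93 (adjusted p = 0.0628). In each of these genes the groups overlapped.

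Relative to the middle of genes, 8 of 9 members were higher in ΔET against 9.99% of genes, from 0.71 for AHP1 to 1.41 ± 0.20 for TRR1 (adjusted p = 5.35e-07), with OYE3 not called (0.27, adjusted p = 0.736). With median-of-ratios size factors in place of TMM none of the 8 was called. Those factors were computed from total reads, so they do not set a gene against the middle of the T>C reads. TRR1 (0.41, adjusted p = 0.0157) and TRX2 (0.37, adjusted p = 0.0373) had more total reads, 2 of 9 against 2.43% of genes. The excess over the change in WT passed for no member with all 6 WT replicates and for 7 with the WT sets as a block (6.78% of genes). TRX1 fell by 1.90 ± 0.31 (adjusted p = 1.99e-07), TRR2 by 2.16 and TSA2 by 2.13 on the same treatment.

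In mET(4) no member was lower by edgeR, also at an unadjusted p under 0.05, against 42.8% of genes, and GRX2 (1.01, adjusted p = 0.041) and SOD1 (1.11, adjusted p = 0.0141) were higher relative to the middle of genes, against 2.49%. ΔBD1/2 had 3 lower members, AHP1 (−0.27, adjusted p = 0.0291), TRX2 (−0.24, adjusted p = 0.0324) and GRX2 (−0.33, adjusted p = 0.0486), against 33.6% of genes. AHP1 (−0.25, adjusted p = 0.041) was the single lower member in ΔB, against 36.3%, and none was in ΔB/BID (1 at an unadjusted p under 0.05), against 39.6%. Relative to the middle of genes, 6 members were higher in ΔBD1/2 (4.25% of genes), 7 in ΔB (3.39%) and 6 in ΔB/BID (6.04%). In mET(1) 4 were higher (0.259%), in ΔNPS 3 (0.439%), in mET(2) 2 (0.638%) and in ΔNPS/CPS 2 (0.339%). In the other 12 strains with an altered copy no member passed either edgeR test. At an unadjusted p under 0.05, 0 to 2 members were lower over library totals in those strains and 1 to 6 were higher with TMM.

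**Figure D4:**
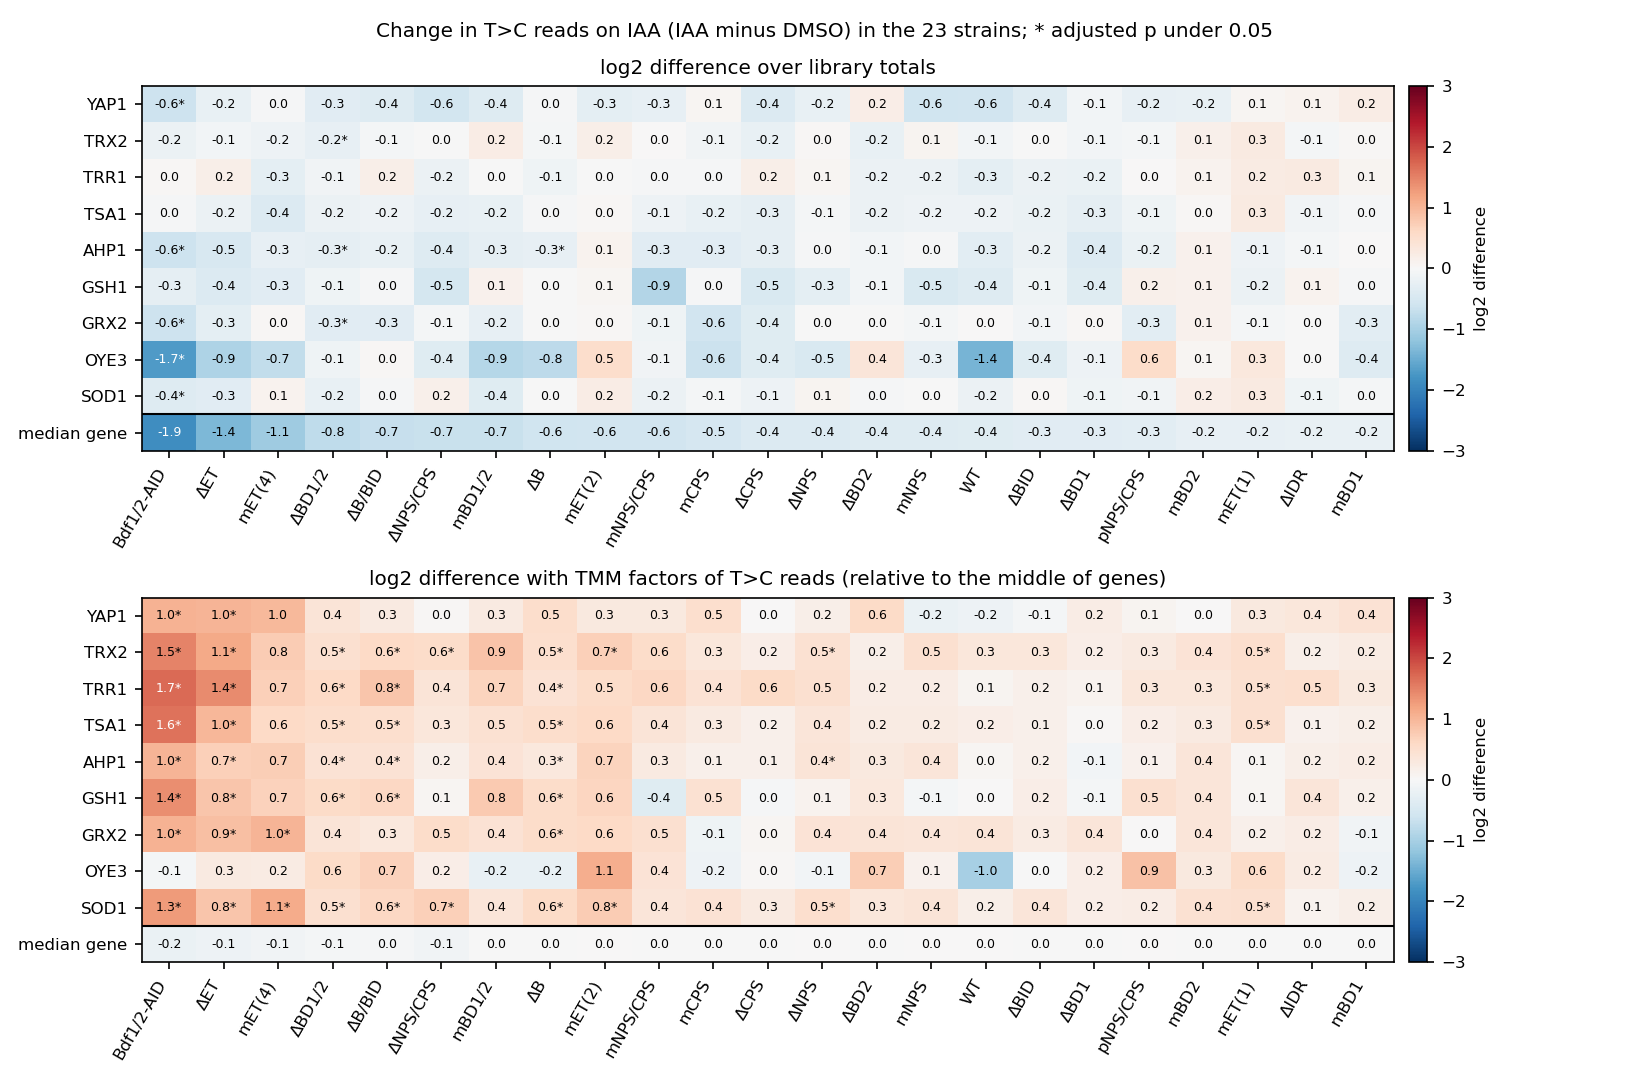
Log2 change on IAA of the 9 genes and of the median gene (rows) in each of 23 strains (columns, ordered by the median gene), over library totals above and with TMM factors below, with an asterisk where the adjusted p was under 0.05. Above, most cells of the redox genes are paler than the median gene in Bdf1/2-AID, ΔET and mET(4). Below, the asterisks gather in the same columns and in ΔBD1/2, ΔB and ΔB/BID.

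The study's measure of a variant is its level against WT in IAA. In Bdf1/2-AID no member was lower than in WT by edgeR, also at an unadjusted p under 0.05, against 75.2% of genes, and TRR1 was higher (0.85, adjusted p = 0.0386), against 1.06%. ΔET likewise had no lower member by either count, nor by DESeq2, against 78.8%, and SOD1 was higher (0.97, adjusted p = 0.0411), against 1.08%. For WT in IAA, TRR1 averaged 49.5 in A–C and 144.4 in D–F, against 158, 167 and 195 in the Bdf1/2-AID libraries. SOD1 averaged 105.6 and 418.6, against 441.5, 508.5 and 589.3 in ΔET. Both strains lay far nearer to D–F than to A–C, so the size of these differences owes much to A–C. The gap between the WT sets also widened the spread, which limited what could be called lower. In mET(4) TSA1 was lower (−1.41, adjusted p = 0.0156), against 67.0%, while TRX2 (1.00, adjusted p = 0.0214) and OYE3 (1.86, adjusted p = 0.00761) were higher, against 0.997%. The mET(4) libraries were numbered beside those of WT A–C. Against WT A–C alone no member was lower in mET(4) (49.5% of genes), and against D–F alone 5 were (74.2%). TRX2 changed sign in Bdf1/2-AID with the WT set, at −0.61 against A–C and 0.76 against D–F.

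In strains whose added Bdf1 lacked bromodomains, most redox genes were higher than in Bdf1/2-AID in DMSO, with the tagged endogenous proteins present. Against Bdf1/2-AID in DMSO, 8 of 9 members were higher in ΔBD1/2 (8.16% of genes), 7 in ΔBD1 (4.43%) and 5 in ΔBD2 (3.35%), with median genes at 0.17, 0.09 and −0.03. OYE3, TRR1, GRX2 and TRX2 had the largest differences in all 3 strains.

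OYE3 had levels of 22.9, 13.3 and 11.7 in Bdf1/2-AID, 109, 110 and 123 in ΔBD1/2, 115, 71.2 and 75.5 in ΔBD1 and 54.6, 73.7 and 61.6 in ΔBD2. The differences were 2.78 ± 0.27 (adjusted p = 2.78e-23), 2.40 ± 0.32 (adjusted p = 4.21e-12) and 1.93. TRR1 had 714, 734 and 717 in ΔBD1/2, 885, 631 and 576 in ΔBD1 and 621, 543.1 and 533.01 in ΔBD2, differences of 2.08 ± 0.14 (adjusted p = 6.79e-45), 2.03 ± 0.19 (adjusted p = 6.54e-25) and 1.73. No library of the 3 strains reached down to the Bdf1/2-AID range for either gene. TRX2 had 4160, 3718 and 3710 in ΔBD1/2, 3476, 3221 and 2878 in ΔBD1 and 3632, 2928 and 2871 in ΔBD2, or 1.53 ± 0.12 (adjusted p = 6.36e-37), 1.25 ± 0.16 (adjusted p = 1.44e-12) and 1.23. GRX2 reached 510.5, 576 and 569.5 in ΔBD1/2, a difference of 2.01 ± 0.15 (adjusted p = 2.5e-38), with 1.47 in ΔBD1 and 1.21 in ΔBD2.

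The remaining members rose less. GSH1 was higher by 1.10 in ΔBD1/2 and 0.97 in ΔBD1, and did not pass in ΔBD2 (0.50, adjusted p = 0.128). TSA1, at 1077, 998 and 916 in ΔBD1/2, was higher by 1.05, with 0.88 in ΔBD1 and 0.59 in ΔBD2 (adjusted p = 0.0111). SOD1, at 1158, 1076 and 1002 in ΔBD1/2, was higher by 0.99 there and by 0.64 in ΔBD1 (adjusted p = 0.00524). AHP1 passed in ΔBD1/2 alone (0.47, adjusted p = 0.00109), with 0.17 in ΔBD1 and −0.15 in ΔBD2.

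YAP1, the gene of the activator, did not pass in any of the 3 strains. Its levels were 80.2, 64.6 and 57.0 in Bdf1/2-AID and 115, 82.3 and 82.6 in ΔBD1/2 (0.45, adjusted p = 0.2), with 0.17 in ΔBD1 (adjusted p = 0.855) and −0.20 in ΔBD2. The ΔBD1/2 libraries all lay above the Bdf1/2-AID libraries, by a margin within the error of the fit.

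RNA present differed too, by less. In ΔBD1/2 total reads were higher for 7 members, against 20.4% of genes, by 1.95 for OYE3, 1.01 for TRR1, 0.88 for GSH1, 0.81 for GRX2, 0.55 for TSA1, 0.44 for TRX2 and 0.24 for SOD1. The labelled share was higher for 7 members, against 2.45% of genes, by 1.21 for GRX2, 1.09 for TRX2 and 1.07 for TRR1. For TRX2 it was 5.98%, 5.94% and 6.88% in Bdf1/2-AID and 14.5%, 13.2% and 12.3% in ΔBD1/2. The 2 ratios add to the level, and for OYE3 and GSH1 the total reads carried most of it.

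With TMM factors the counts were 7 in ΔBD1 (4.97% of genes), 7 in ΔBD2 (4.33%) and 8 in ΔBD1/2 (5.62%). Against WT D–F in DMSO, 8, 7 and 8 members were higher (2.83%, 2.13% and 4.05% of genes). On IAA the levels stayed high: against WT in IAA, 9 members were higher in ΔBD1/2 (3.81% of genes), 7 in ΔBD1 (2.45%) and 5 in ΔBD2 (1.91%). In ΔBD1/2 OYE3 stood at 4.45, over 0 to 9 T>C reads in a WT library, and TRR1 at 2.81. This WT group pools D–F with A–C, whose TRR1 levels were lower. These comparisons share control libraries. The 18 libraries of the 3 strains had consecutive numbers with no library of another strain among them, so that strain and any difference that goes with library number cannot be told apart.

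**Figure D5:**
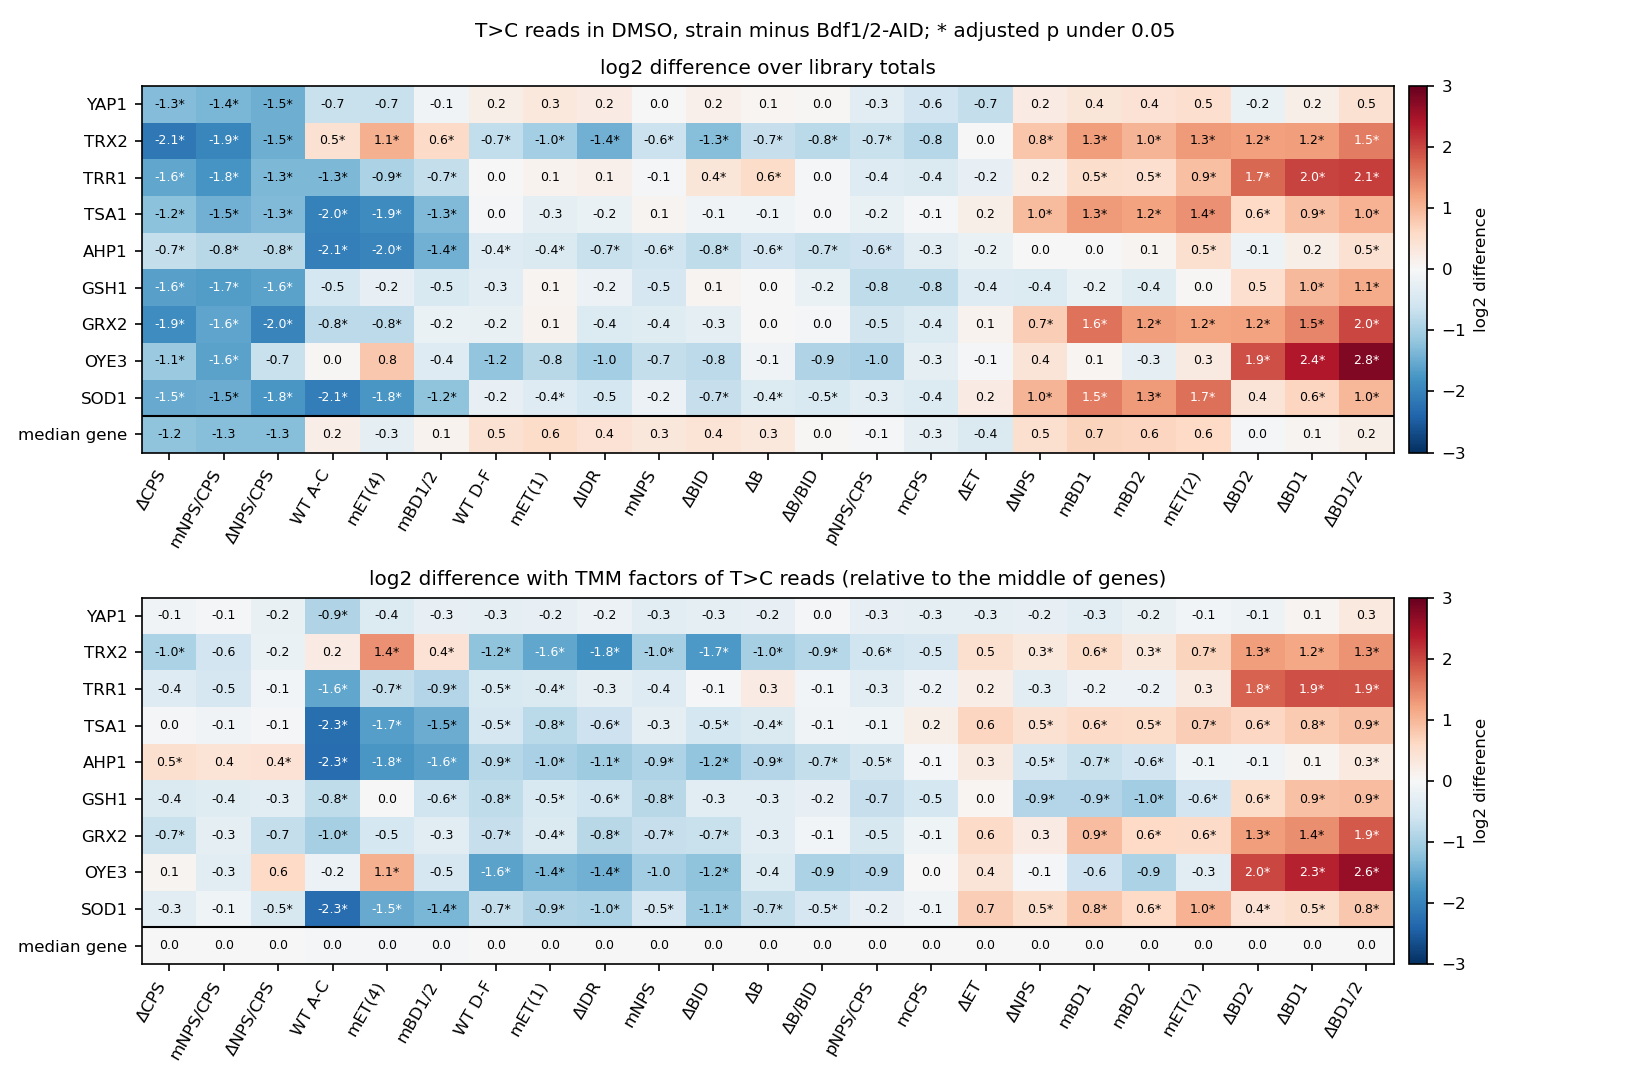
Log2 difference in DMSO of the 9 genes and of the median gene (rows) from Bdf1/2-AID in 23 columns, WT being split into A–C and D–F, over library totals above and with TMM factors below, with an asterisk where the adjusted p was under 0.05. ΔBD1, ΔBD2 and ΔBD1/2 are high in OYE3, TRR1, GRX2 and TRX2 on both scales, whereas the low columns of ΔCPS, mNPS/CPS and ΔNPS/CPS mostly pale with TMM.

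The wider redox list moved in the same strains. In DMSO 15 of the 30 tested genes were higher in ΔBD1, 12 in ΔBD2 and 16 in ΔBD1/2, against 4.43%, 3.35% and 8.16% of all genes, and none was lower. SRX1 had levels of 35.3, 32.7 and 43.6 in Bdf1/2-AID and 413.8, 437 and 420 in ΔBD1/2, a difference of 3.54, and its difference was 2.89 in ΔBD1 and 2.68 in ΔBD2. PRX1 was higher by 2.16, 1.93 and 2.19 in ΔBD1, ΔBD2 and ΔBD1/2, MXR1 by 1.91, 1.39 and 2.07, and GPX2 by 1.75, 1.62 and 1.94. SOD2 was higher by 1.23, 0.86 and 1.45. ZWF1 was higher in ΔBD1 (1.04) and ΔBD1/2 (1.49) and did not pass in ΔBD2 (0.60, adjusted p = 0.125). TRX1 and TRX3 did not pass in ΔBD1/2 (0.33 and −0.90).

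The strains mBD1 and mBD2, with point mutations in a single bromodomain, gave another pattern. So did ΔNPS and mET(2), whose libraries were numbered beside them. In mBD1 5 members were higher (46.1% of genes) and in mBD2 5 (41.1%), in both TRX2, TRR1, TSA1, GRX2 and SOD1, and in ΔNPS 4 (30.7%) and mET(2) 6 (36.8%), so that many of all genes were higher there too. TRX2 ranged from 2337 to 3894 over the 12 DMSO libraries of these 4 strains, which overlapped the 2871 to 4160 of the 9 bromodomain deletion libraries. TRR1 did not overlap, at 163 to 368 against 533.01 to 885, nor did OYE3, at 9.87 to 30.0 against 54.6 to 123. OYE3 and TRR1 thus separated the deletion strains from these 4, as TRX2 did not. The mET(1) libraries, which came next in number, did not share the high TRX2 levels (721, 586 and 686 in DMSO), and 3 members were lower there than in Bdf1/2-AID, against 0.339% of genes. The double mutant mBD1/2, in the library set of WT A–C, had DMSO levels of 80.5, 115 and 113 for TRR1. Its levels were 12.5, 17.8 and 7.68 for OYE3 and 2051, 2219 and 1725 for TRX2. Against Bdf1/2-AID, strain and library set cannot be told apart there. Within that set, WT A–C had DMSO levels of 74.6, 60.4 and 65.3 for TRR1. WT A–C had 17.2, 21.7 and 11.5 for OYE3 and 1779, 1924 and 1845 for TRX2. The difference of mBD1/2 from WT A–C in DMSO was not tested.

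In ΔCPS, mNPS/CPS and ΔNPS/CPS the redox genes were low in DMSO along with most genes. All 9 were lower than in Bdf1/2-AID in ΔCPS (76.3% of genes), 9 in mNPS/CPS (62.6%) and 8 in ΔNPS/CPS (68.4%), where OYE3 did not pass (−0.67, adjusted p = 0.213). In ΔCPS TRX2 had levels of 299.5, 327.1 and 290 (−2.14 ± 0.13, adjusted p = 3.03e-55), below the median gene (−1.20), and GRX2 changed by −1.87. AHP1, at 959.5, 1058 and 1011, was the least reduced (−0.71 ± 0.12, adjusted p = 1.2e-08). The labelled share was lower in ΔCPS for all 9, against 87.9% of genes.

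With TMM the 3 counts became 2 in ΔCPS (2.29% of genes), 0 in mNPS/CPS (0.179%) and 1 in ΔNPS/CPS (1.87%). TRX2 (−0.95) and GRX2 (−0.68) were lower in ΔCPS and SOD1 (−0.48) in ΔNPS/CPS. AHP1 was higher in ΔCPS (0.47), where 5.09% of genes were, and in ΔNPS/CPS (0.44), where 2.03% were. Total reads in ΔCPS differed with the same genes at the ends, by −0.96 for TRX2 and −0.67 for GRX2, and by 0.34 for AHP1 and 0.83 for OYE3.

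Across all groups the order of strains differed from gene to gene. In DMSO, mean levels ran for YAP1 from 24.5 in ΔNPS/CPS to 97.4 in mET(2), and for TRX2 from 305 in ΔCPS to 3863 in ΔBD1/2. TRR1 ran from 49.9 in mNPS/CPS to 722 in ΔBD1/2, GSH1 from 42.3 to 291.6 and OYE3 from 5.26 to 114 in the same strains, and GRX2 from 34.9 in ΔNPS/CPS to 552 in ΔBD1/2. TSA1, AHP1 and SOD1 shared another order, lowest in WT A–C (118, 398.9 and 130) and highest in mET(2) (1249, 2308 and 1721). WT D–F, of the same strain as A–C, had 471, 1260 and 458, so this low end is not that of a strain. At the top, ΔBD1 (697 ± 165, SD) did not stand apart from ΔBD1/2 (722 ± 11.2) in TRR1, nor did mET(2) in AHP1 (2308 ± 499.5) from ΔBD1/2 (2291 ± 132).

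Over the 46 strain-by-treatment means, each less the median gene, the members' log2 levels correlated most between TSA1 and SOD1 (Pearson r = 0.961), then TRR1 and GSH1 (0.847) and TRR1 and GRX2 (0.842), and least between TRX2 and AHP1 (0.374). These means share libraries and library sets across genes and carry no test. In DMSO the set of WT A–C, mET(4) and mBD1/2 was low in both TSA1 and SOD1, with medians of 130 and 152. WT D–F had means of 471 and 458. Among 2605 genes, those most like YAP1 over the same means were ERG5, GPP1 and ALD6 (0.853, 0.853 and 0.852). Those most like TRX2 were its neighbour YGR210C (0.999), GPX2 (0.952) and YER053C-A (0.880).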

How the data were processed

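The deposited T>C read counts and total read counts per gene, 1 file per library, were made by the authors with fastp 0.23.2, bbduk and SLAM-DUNK on paired-end reads, and were not normalized. T>C reads were those with multiple T-to-C conversions. Counted regions matched R64 annotation, and strand use in counting is not given in the sources used here.

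Genes with a mean of at least 5 T>C reads over all libraries were kept (5014 of 6465), and 6045 were tested for total reads. T>C counts were tested in edgeR 4.0.16 (R 4.3.3; quasi-likelihood, groups compared alone, offset of the log library total), with Benjamini-Hochberg adjustment over all genes tested and a threshold of 0.05. The same fits were run with TMM factors of the T>C reads, with the gene's own total reads (plus 0.5) as offset for the labelled share, and on total reads. Alternatives were median-of-ratios size factors, computed from total reads and not from T>C reads, and 2 filters on low counts. Others were DESeq2 1.42.0, 1 fit over all 46 groups, a replicate block and leaving out each replicate. The use of the WT sets A–C and D–F alone or as a block, and the alternatives for the relative change and for the bromodomain deletion strains, were chosen after seeing the data. The fits were tested on simulated data. Members' reads that mapped to several places were 0.0805% to 0.338%.

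The 9 members and all gene lists were chosen with earlier results of these data known. Named besides the members are their 6 closest relatives, the 6 other redox genes farthest from the middle of genes on IAA in Bdf1/2-AID, and the 3 genes most like YAP1 and most like TRX2 (Pearson r, genes with a mean of at least 20 T>C reads). Replicate letters are the labels' own; the methods call them biological replicates. Same-lettered WT libraries deviated together over A to F (r = 0.212 to 0.499) but not within A–C (0.00392 to 0.0567) or D–F (0.0032 to 0.0475), so the letters follow the 2 sets. Precision is limited by counting error and by 3 replicates a group.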

Additional observations from a re-analysis of the deposited data

Results flagged for a closer look

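For 3 genes the interaction test found unlike responses to IAA in the parental strain and in WT A–F, relative to the middle of genes. Bdf1/2-AID minus WT was 1.24 for YAP1 (adjusted p = 0.0357), 1.64 for TRR1 (adjusted p = 0.0446) and 1.41 for GSH1 (adjusted p = 0.011). Among 54 sets of 6 WT libraries (9 genes, 2 treatments, 3 measures), no single library lay beyond Dixon's limit. Where A–C and D–F lay apart, their gap set most of the range. The limit could then hardly flag a single library, so nothing is concluded from it.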

How the results depend on the processing

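Most counts and single-gene values kept their direction and side of the threshold. Of the counts, 213 stayed within 1.5 times and 49 did not. Of the single-gene values, 190 kept their call, 7 lost it, 3 gained one and 23 turned sign.

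Scaling had the largest effect. In Bdf1/2-AID the 5 lower members became 0 with median-of-ratios factors and 0 with TMM. The signs turned for YAP1 (0.45 and 1.04 with the 2 scalings), TRX2 (0.89 and 1.48), TSA1 (1.04 and 1.63), AHP1 (0.45 and 1.03), GSH1 (0.82 and 1.40), GRX2 (0.44 and 1.05) and SOD1 (0.68 and 1.27). OYE3 relative to the middle of genes turned to 0.042 with the replicate block. With median-of-ratios factors the 8 higher members in ΔET became 0. TMM took ΔCPS from 9 to 2, mNPS/CPS from 9 to 0, ΔNPS/CPS from 8 to 1 and total reads in Bdf1/2-AID from 4 to 8.

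In WT the 0 lower members became 1 with 1 fit over all groups and 3 with the replicate block, which also took the lower shares from 0 to 7. The block changed no count of Bdf1/2-AID by over 1.5 times. In strains other than WT, same-lettered DMSO and IAA libraries deviated together only weakly, up to r = 0.199 in mET(2). No such strain passed the limit set for pairing, r above 0.1 for every letter. In some, such as ΔBD1/2 and mET(2), all 3 DMSO libraries were still most like the IAA library of the same letter. Changes on IAA in ΔBD1/2 and mET(2) were tested without a block. For ΔET against WT in IAA, the 0 lower became 1 with WT A–C. The 1 higher became 8 with median-of-ratios factors, 9 with TMM, 4 with 1 fit, 4 with the block, 4 with WT A–C, 2 with D–F, and 0 with DESeq2 or with a T>C read required in every library. For mET(4), the 1 lower became 0 with median-of-ratios factors, TMM, the block or WT A–C, 2 with the laxer filter, 3 with 1 fit and 5 with D–F, and the 2 higher became 5 with TMM and 1 with the strict filter. The interaction count of 3 for Bdf1/2-AID was 6 with WT A–C and 8 with D–F, and the 0 for ΔET was 1 and 6.

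Leaving out 1 replicate gave 3 to 6 lower members in Bdf1/2-AID, with TRR1 at −0.062 to 0.11, TSA1 at −0.14 to 0.023 and OYE3 relative at −0.35 to 0.31. It gave 0 to 4 higher members in ΔET against WT, and 0 to 2 lower and 1 to 2 higher in mET(4). ΔET relative counts ran from 6 to 8, those of mNPS/CPS from 6 to 9, ΔCPS 8 to 9, ΔBD1 6 to 7 and ΔBD2 4 to 5, and lower shares in Bdf1/2-AID 5 to 6. OYE3, with 16.6 T>C reads a library, is limited by depth.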
